A study of Mus musculus with 8 samples.

Results

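The 10 genes described here belong to the ATF4 branch and the endoplasmic reticulum (ER) branches of the unfolded protein response: Atf4, Ddit3, Trib3, Chac1, Asns, Ppp1r15a, Xbp1, Herpud1, Sdf2l1 and Creld2. They were taken by symbol from a gene table of mouse kidney RNA. The symbols matched 11 of its 34450 gene identifiers, because Ddit3 has 2 annotated loci. Expression was compared between 4 kidney libraries of C57BL/6J mice that were exposed to hypoxia before ischaemia-reperfusion injury (IRI, a stop and restart of the blood supply) and 4 from mice of the same strain that were kept in normoxia before IRI. All mice were 8 weeks old, all kidneys had undergone IRI, and all were taken at day 3 after it. The labels give neither the length nor the oxygen level of the exposure, and no uninjured kidney was analysed here. Nothing in the labels says that each library came from a different mouse, so the p-values measure the spread between libraries, which may be technical. Of the 10 genes, 9 reached a mean of 0.5 FPKM over the 8 libraries and were tested among 14444 genes; Trib3 did not.

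When unfolded proteins build up in the ER, the sensors PERK, IRE1 and ATF6 are activated. PERK phosphorylates the initiation factor eIF2 alpha, which slows translation in general but favours that of ATF4, a transcription factor that switches on genes for amino acid supply, redox balance and, under lasting stress, cell death. Other kinases act on eIF2 alpha when amino acids are short or viral RNA is present, so ATF4 also serves a wider integrated stress response. IRE1 splices the messenger RNA of Xbp1, and ATF6 is cut to release a transcription factor. Both drive genes for chaperones and for protein degradation in the ER. In the kidney these pathways are known to be active in tubule cells after ischaemia. ATF4 is controlled mainly at translation and XBP1 by splicing, and neither is read by the gene-level RNA values used here.

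None of the 9 tested genes passed the threshold of a limma adjusted p under 0.05, where 0.305% of all tested genes were called higher after hypoxia and 0.602% lower. At an unadjusted p under 0.05, 2 were lower after hypoxia (Asns and Sdf2l1) and 0 higher, beside 6.84% and 2.52% of all tested genes. The log2 change of hypoxia minus normoxia was negative for 8 of the 9 and positive for Herpud1, with a median of -0.71, while the median of all tested genes was -0.14 and 38.97% of those were positive. With TMM scaling the median of the 9 was -0.52 and 7 were negative, and without normoxia library 5 as well it was -0.31. In whole-kidney RNA, fewer cells of a type and less RNA per cell cannot be told apart. The groups overlapped for all 10 genes, whereas they did not overlap for 4.92% of all tested genes.

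Because the genes are thought to be switched on through short DNA motifs, their promoters are shown where such a motif was found in the 250 bases before the transcript start. RefSeq (GRCm38.p6) gave a promoter for each of the 10 genes. Of the motifs searched on both strands, the C/EBP-ATF response element (CARE, TGATGCAA), which ATF4 binds, was found in 2 of the 10 (Chac1 and Herpud1) and in 0.791% of all 32851 promoters. The nutrient-sensing response element known from the human ASNS gene (NSRE-1, TGATGAAAC) was found in Asns and in 0.213% of all promoters. The ER stress elements, bound by ATF6 with NF-Y or by XBP1, were found in Creld2 (ERSE, CCAAT and CCACG with 9 bases between, 0.113% of all promoters) and in Herpud1 (ERSE-II, ATTGG and CCACG with 1 base between, 0.0304%). The cyclic AMP response element (CRE, TGACGTCA) was found in Ppp1r15a and in 1.55% of all promoters, and the core of the unfolded protein response element (TGACGTGG, 0.563%) in none of the 10. The CCAAT box, which is part of both ER stress elements, was found in 6 of the 10 and in 33.8% of all promoters. The windows below run from 30 bases before the motif to 30 after it or to the last base before the start, on the strand of the gene, with the motif in capitals. A match describes letters only.

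Herpud1, chr8:94386287-94386417, plus strand, CARE reversed and then ERSE-II: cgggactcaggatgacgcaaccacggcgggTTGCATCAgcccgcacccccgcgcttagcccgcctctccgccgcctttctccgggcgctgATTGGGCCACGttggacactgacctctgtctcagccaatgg
Chac1, chr2:119351019-119351086, plus strand, CARE reversed: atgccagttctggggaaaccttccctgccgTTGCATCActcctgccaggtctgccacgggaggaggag
Asns, chr6:7693210-7693262, minus strand, NSRE-1: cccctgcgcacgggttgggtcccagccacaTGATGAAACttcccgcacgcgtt
Creld2, chr15:88819490-88819568, plus strand, ERSE reversed: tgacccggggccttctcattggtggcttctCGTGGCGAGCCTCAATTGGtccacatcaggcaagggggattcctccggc
Ppp1r15a, chr7:45526269-45526310, minus strand, CRE: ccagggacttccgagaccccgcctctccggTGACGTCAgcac

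**Figure D1:**
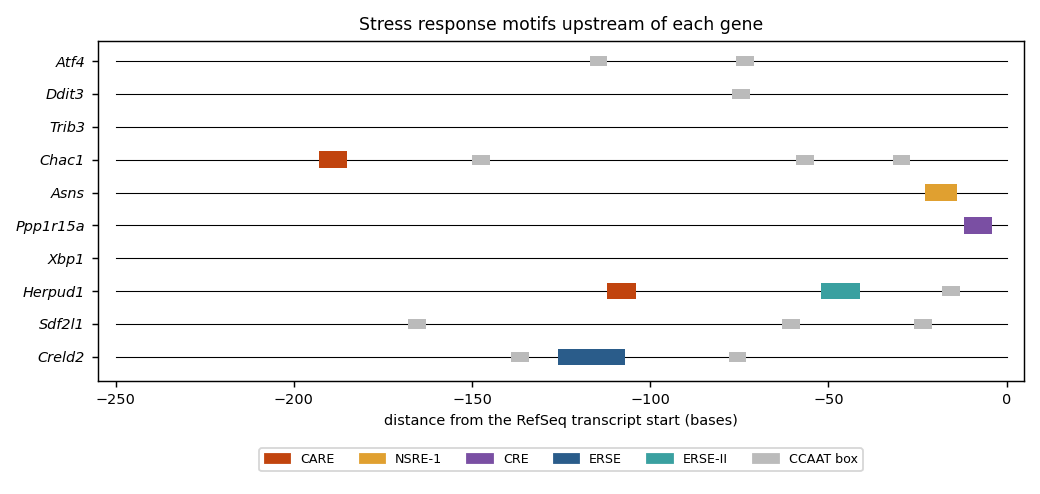
Positions of the motifs in the 250 bases before the RefSeq transcript start (distance in bases on the horizontal axis, 1 gene per line, colours for motifs). The CARE match begins at position -112 in Herpud1 and -193 in Chac1, the ERSE-II match at -52 in Herpud1, NSRE-1 at -23 in Asns and CRE at -12 in Ppp1r15a.

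The libraries differed in ways that bear on every value below. Ribosomal transcripts took 21.5% to 67.4% of the assigned fragments in the hypoxia libraries and 13.5% to 72.5% in the normoxia libraries, and FPKM is relative to a total that includes them. Normoxia library 5 was least like the rest, with a mean Spearman correlation of 0.633 against 0.767 to 0.832 for the other 7. Hypoxia libraries 3 and 4 had nearly the same ribosomal share (66.3% and 67.4%), and 1 and 2 had lower ones (40.9% and 21.5%). These pairs were averaged in 1 of the alternative settings. Values are therefore given as deposited and, where it matters, after TMM scaling, which sets the bulk of genes to a common level, and again without normoxia library 5. The median change over all genes was 0.02 on the scaled values, a shift of 0.15 on the log2 scale.

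Atf4 (ENSMUSG00000042406, chr15:80255184-80257541, plus strand, GENCODE M21 on GRCm38), the transcription factor itself, had 22.9, 26.9, 9.99 and 7.41 FPKM in hypoxia libraries 1 to 4, against 12.3, 18.1, 51.6 and 12.3 FPKM in normoxia libraries 5 to 8. Normoxia library 7 stood above all others, and hypoxia libraries 3 and 4 stood below all others, with the remaining 5 between. Atf4 averaged 16.8 ± 9.55 FPKM (SD, n = 4) with hypoxia and 23.6 ± 18.9 FPKM (SD, n = 4) with normoxia, a log2 change of -0.39 ± 0.73 (SE; limma adjusted p = 0.999) with a 95% interval of -1.90 to 1.11. TMM scaling brought the highest library from 6.96 times the lowest to 2.43 times. The scaled values were 18.4, 18.9, 15.5 and 11.2 after hypoxia and 13.7, 17.9, 27.2 and 15.9 after normoxia, with an interval of -0.95 to 0.55 for the log2 change of -0.20. With each library left out in turn the unscaled change ran from -0.68 to 0.068, and it was positive without normoxia library 7.

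Ddit3 (ENSMUSG00000025408, chr10:127290774-127296288, plus strand) encodes CHOP, a factor that ATF4 induces and that promotes cell death. It had 4.76, 4.41, 1.79 and 1.34 FPKM in the hypoxia libraries and 21.9, 3.31, 11.5 and 2.61 FPKM in the normoxia libraries. Normoxia libraries 5 and 7 were above all hypoxia libraries, while normoxia libraries 6 and 8 lay among them. The means were 3.08 ± 1.76 FPKM (SD, n = 4) with hypoxia and 9.83 ± 8.98 FPKM (SD, n = 4) with normoxia, with a log2 change of -1.22 ± 0.65 (SE; limma adjusted p = 0.617). With TMM scaling the change was -1.06 (adjusted p = 0.393), and without normoxia library 5 as well it was -0.43 (adjusted p = 0.314). Of the single libraries left out, normoxia library 5 moved the unscaled change the most, to -0.69. Its scaled Ddit3 level was 24.4, beside 2.02 to 3.82 across hypoxia libraries 1 to 4 and 3.28 to 6.09 across normoxia libraries 6 to 8. The locus overlaps Mars on the opposite strand, a methionyl tRNA synthetase gene at up to 11.3 FPKM. The labels name a stranded kit but the counting is not described, so reads of the pair may not have been told apart. The other annotated Ddit3 locus (ENSMUSG00000116429, chr10:127290829-127293753) lies within the first and was at 0 to 0.15 FPKM.

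Trib3 and Chac1 are targets of ATF4 and CHOP at low level in these kidneys. Trib3 (ENSMUSG00000032715, chr2:152337422-152344032, minus strand), a pseudokinase that restrains ATF4 and AKT, had 0.34, 0.39, 0.17 and 0.30 FPKM after hypoxia and 0.66, 0.24, 1.23 and 0.16 FPKM after normoxia. Normoxia libraries 5 and 7 were the 2 highest, and normoxia library 8 the lowest. Each value rests on an estimated 3 to 38 fragments. With no filter on low genes the log2 change was -0.32 ± 0.34 (SE; limma adjusted p = 0.84, n = 4 each), and the two-sided exact permutation p was 0.429, where this design can give 0.0286 at the smallest.

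Chac1 (ENSMUSG00000027313, chr2:119351229-119354381, plus strand) degrades glutathione and carries the CARE match shown above. It had 0.51, 0.99, 0 and 0.34 FPKM in the hypoxia libraries and 3.77, 0.58, 1.34 and 0.33 FPKM in the normoxia libraries. Normoxia library 5 was again the highest, and hypoxia library 3 was listed at 0. An estimated 83 fragments lay behind the highest value, and 4.8 behind that of normoxia library 8. The log2 change was -0.87 ± 0.48 (SE; limma adjusted p = 0.661), -0.41 without normoxia library 5, and -0.31 (adjusted p = 0.63) with TMM scaling and without normoxia library 5.

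Asns (ENSMUSG00000029752, chr6:7675169-7693254, minus strand), the asparagine synthetase that ATF4 induces when amino acids are short, came closest to the threshold. Hypoxia libraries 1 to 4 had 2.25, 1.43, 0.46 and 0.33 FPKM, and normoxia libraries 5 to 8 had 6.20, 1.68, 6.60 and 2.28 FPKM. The only overlap was of hypoxia library 1 with normoxia library 6. Asns averaged 1.12 ± 0.90 FPKM (SD, n = 4) with hypoxia and 4.19 ± 2.57 FPKM (SD, n = 4) with normoxia, a log2 change of -1.52 ± 0.53 (SE; 95% interval -2.61 to -0.44; unadjusted p = 0.00777, limma adjusted p = 0.213). Its two-sided exact permutation p was 0.0571. The values of hypoxia libraries 3 and 4 rest on an estimated 10 and 8 fragments. With TMM scaling the levels were 1.81, 1.01, 0.711 and 0.498 after hypoxia and 6.92, 1.67, 3.48 and 2.96 after normoxia, and the change was -1.43 (adjusted p = 0.10). With TMM scaling and without normoxia library 5 it was -1.11 (adjusted p = 0.0571), beside 5.77% of genes called higher and 5.32% called lower in that fit. The lowest adjusted p of any of the 9 genes over the 21 settings was 0.0504, for Asns after removal of the trend with transcript length, so Asns passed in none. Leaving out single libraries moved its unscaled change between -1.84 and -1.26.

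Ppp1r15a (ENSMUSG00000040435, chr7:45522916-45526268, minus strand), whose product GADD34 brings a phosphatase to eIF2 alpha and so ends the block of translation, had 2.68, 7.35, 1.51 and 1.73 FPKM after hypoxia and 3.77, 2.73, 5.01 and 1.57 FPKM after normoxia. Hypoxia library 2 was the highest and hypoxia library 3 the lowest of the 8. The log2 change was -0.12 ± 0.54 (SE; limma adjusted p = 0.999), with a 95% interval of -1.24 to 0.997. It turned positive with TMM scaling, at 0.04 (adjusted p = 0.969), and without hypoxia library 3 (0.11), hypoxia library 4 (0.059) or normoxia library 7 (0.09). Without hypoxia library 2 it was -0.55.

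**Figure D2:**
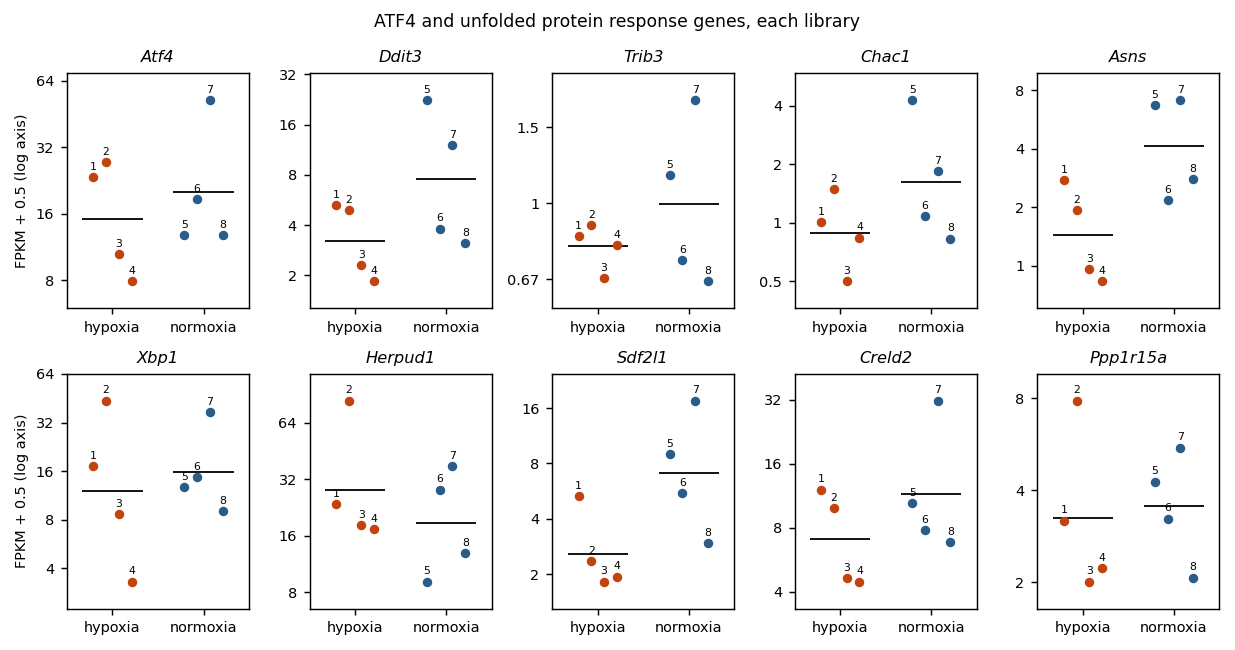
FPKM + 0.5 of each gene (vertical log axis, own range in each panel) in the 4 hypoxia libraries (red, left) and the 4 normoxia libraries (blue, right), numbered by library, with lines at the group means of the log2 values. The groups overlap in each panel, and the overlap for Asns is between hypoxia library 1 at 2.25 FPKM and normoxia library 6 at 1.68 FPKM.

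Xbp1 (ENSMUSG00000020484, chr11:5520659-5525893, plus strand), the factor made active by IRE1, had 16.8, 43.2, 8.15 and 2.81 FPKM in the hypoxia libraries and 12.3, 14.2, 36.5 and 8.58 FPKM in the normoxia libraries. Hypoxia library 2 and hypoxia library 4 were the highest and the lowest of all 8. The means were nearly equal, at 17.7 ± 17.9 FPKM (SD, n = 4) with hypoxia and 17.9 ± 12.6 FPKM (SD, n = 4) with normoxia, and the log2 change was -0.39 ± 0.77 (SE; limma adjusted p = 0.999) with a 95% interval of -1.98 to 1.20. It was 0.24 without hypoxia library 4, 0.022 without normoxia library 7 and -1.003 without hypoxia library 2. Spliced and unspliced Xbp1 are summed in these values. TMM scaling left a 7.19-fold range between the libraries, with 13.5, 30.5, 12.6 and 4.24 after hypoxia and 13.7, 14.1, 19.3 and 11.1 after normoxia, a wider range than the 2.43-fold of Atf4.

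Herpud1 (ENSMUSG00000031770, chr8:94386438-94395377, plus strand), an ER membrane protein that takes part in the degradation of misfolded proteins, carries the CARE and ERSE-II matches shown above. Herpud1 was the only tested gene with a positive change as deposited. It had 23.2, 83.5, 17.7 and 16.8 FPKM in the hypoxia libraries and 8.59, 27.6, 37.2 and 12.4 FPKM in the normoxia libraries. Hypoxia library 2 was far above the rest, normoxia library 5 was the lowest, and the other 6 lay between 12.4 and 37.2 FPKM. Herpud1 averaged 35.3 ± 32.3 FPKM (SD, n = 4) with hypoxia and 21.5 ± 13.3 FPKM (SD, n = 4) with normoxia, a log2 change of 0.58 ± 0.77 (SE; limma adjusted p = 0.979). It was 0.056 without hypoxia library 2, 0.23 without normoxia library 5 and 0.92 without normoxia library 7. With TMM scaling the change was 0.78, with a 95% interval of -0.24 to 1.799 (adjusted p = 0.448), and the levels were 18.6, 58.9, 27.4 and 25.4 after hypoxia against 9.59, 27.4, 19.6 and 16.1 after normoxia.

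Sdf2l1 (ENSMUSG00000022769, chr16:17130138-17132383, minus strand), which works with the chaperone BiP in the ER, had 4.80, 1.85, 1.32 and 1.44 FPKM after hypoxia and 8.49, 4.99, 17.1 and 2.45 FPKM after normoxia. Only hypoxia library 1 reached into the normoxia range, above normoxia library 8. The means were 2.35 ± 1.65 FPKM (SD, n = 4) with hypoxia and 8.25 ± 6.37 FPKM (SD, n = 4) with normoxia, with a log2 change of -1.47 ± 0.60 (SE; 95% interval -2.69 to -0.24; unadjusted p = 0.0211, limma adjusted p = 0.361). With TMM scaling the levels were 3.86, 1.30, 2.04 and 2.17 after hypoxia and 9.48, 4.95, 8.99 and 3.18 after normoxia, for a change of -1.29 (adjusted p = 0.134). With TMM scaling and without normoxia library 5 it was -1.07 (adjusted p = 0.109), so Sdf2l1 passed under neither.

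Creld2 (ENSMUSG00000023272, chr15:88819646-88826683, plus strand), an ER protein with a disulfide isomerase role, had 11.6, 9.39, 4.13 and 3.97 FPKM in the hypoxia libraries and 9.92, 7.33, 31.1 and 6.34 FPKM in the normoxia libraries. Normoxia library 7 was far above all others, and hypoxia libraries 3 and 4 were the lowest. The log2 change was -0.71 ± 0.66 (SE; limma adjusted p = 0.914) with a 95% interval of -2.08 to 0.66. It was -0.22 without normoxia library 7, and -0.97 without hypoxia library 1 at the other end. After TMM scaling the libraries of highest and lowest Creld2 differed by 2.74-fold in place of 7.85-fold.

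**Figure D3:**
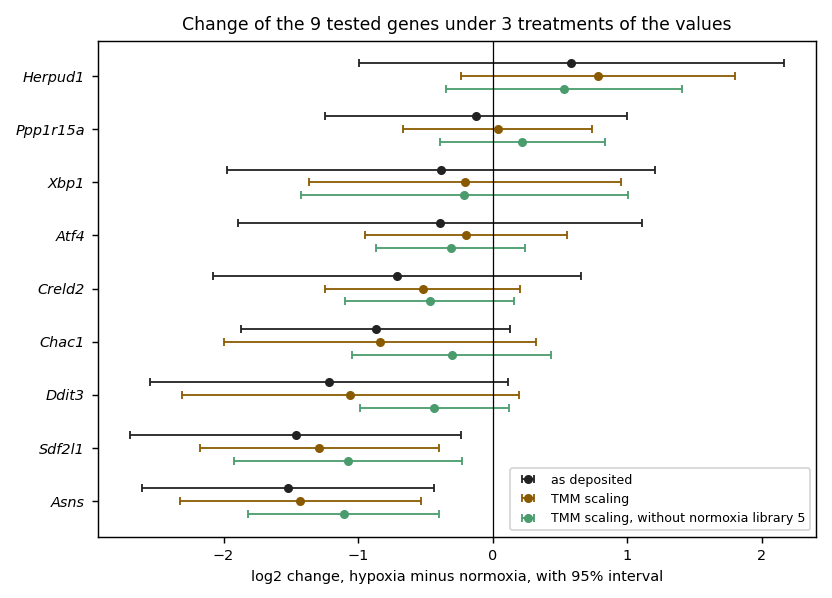
Log2 change of hypoxia minus normoxia (horizontal axis) for the 9 tested genes, with 95% intervals of the limma fit, for the values as deposited (black), with TMM scaling (brown) and with TMM scaling without normoxia library 5 (green). The intervals of Asns and Sdf2l1 lie below 0 under all 3, yet the adjusted p of Asns was 0.213, 0.10 and 0.0571. The change of Ddit3 with TMM scaling is -1.06 with library 5 and -0.43 without it.

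The level order of the 10 genes, per length of transcript, was Herpud1 (mean 28.4 FPKM over the 8 libraries), Atf4 (20.2), Xbp1 (17.8), Creld2 (10.5), Ddit3 (6.45), Sdf2l1 (5.30), Ppp1r15a (3.29), Asns (2.65), Chac1 (0.983) and Trib3 (0.436). Herpud1 was above Atf4 in 6 of the 8 libraries and Atf4 above Xbp1 in 7. Ddit3 was above Sdf2l1 in 4 of 8, so these neighbours had no fixed order. Ddit3 ranked highest of the 10 genes in normoxia library 5 and was as low as rank 7 elsewhere.

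The heat map of gene-centred values shows which genes moved together between libraries. As deposited, normoxia library 7 was above the mean of each gene and hypoxia libraries 3 and 4 were below it for all 10. Over the 45 pairs of genes the Pearson correlation of log2 values across the 8 libraries ran from -0.08 to 0.93 with a median of 0.68, and with TMM scaling from -0.76 to 0.89 with a median of 0.33. The 8 points share their library depth and ribosomal share, so these are descriptions only. In normoxia library 5, Ddit3, Chac1, Asns and Sdf2l1 were high while Herpud1 was at its lowest. In hypoxia library 2, Herpud1, Xbp1 and Ppp1r15a were at their highest while Sdf2l1 was at its lowest after TMM scaling.

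**Figure D4:**
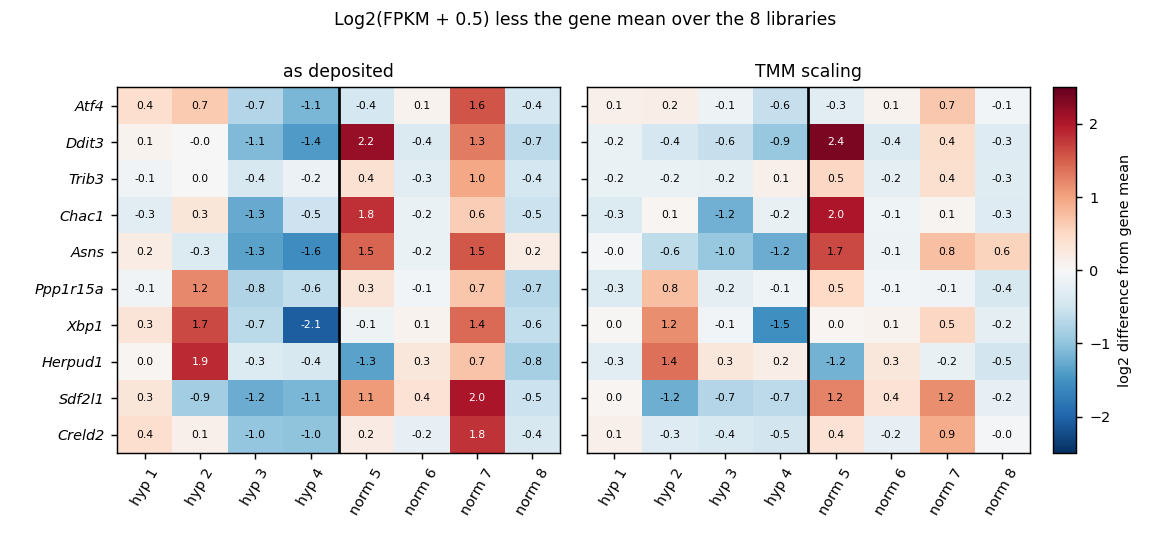
Log2(FPKM + 0.5) of each gene less its mean over the 8 libraries, as deposited (left) and with TMM scaling (right), with hypoxia libraries left of the black line and normoxia libraries right of it. Red is above and blue below the gene's mean. Ddit3 and Chac1 stay high in normoxia library 5 with TMM scaling, at levels of 24.4 for Ddit3, and Herpud1 stays high in hypoxia library 2, at 58.9.

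Ratios within a library cancel its scale. The ratio of Asns to Atf4 was 0.0981, 0.0532, 0.0460 and 0.0445 in the hypoxia libraries and 0.505, 0.0928, 0.128 and 0.185 in the normoxia libraries, with only hypoxia library 1 above normoxia library 6. The ratio of Ddit3 to Atf4 was 0.164 to 0.208 after hypoxia and 0.183 to 0.224 after normoxia in 3 libraries, with 1.78 in normoxia library 5. The groups overlapped for all 9 ratios to Atf4, where 12.5% of 14422 genes had ratios to Atf4 that did not overlap. The ratio of Herpud1 to Atf4 was 1.01, 3.11, 1.77 and 2.27 after hypoxia and 0.6995, 1.53, 0.720 and 1.01 after normoxia, and its groups overlapped as well.

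Ratios to a relative gave 2 of 8 pairs whose groups did not overlap, where 13.9% of 3539 pairs of consecutively numbered genes did not. No pair was formed for Ddit3, Asns or Xbp1, and Trib3 was paired with both Trib1 and Trib2. The pairs were chosen with their values known, so no test is given. Sdf2l1 to Sdf2, its constitutive relative, was 0.268, 0.0696, 0.213 and 0.263 after hypoxia and 0.580, 0.531, 0.615 and 0.366 after normoxia. Chac1 to Chac2, which degrades glutathione more slowly, was 0.0458, 0.0767, 0 and 0.0876 after hypoxia and 5.16, 0.167, 0.191 and 0.324 after normoxia. Chac2 itself had 11.1, 12.9, 2.49 and 3.88 FPKM after hypoxia and 0.73, 3.48, 7 and 1.02 FPKM after normoxia, with a log2 change of 1.30 (limma adjusted p = 0.55), so both members of the pair enter that ratio. The ratios of Ppp1r15a to Ppp1r15b, Trib3 to Trib1 and Trib2, Creld2 to Creld1, Herpud1 to Herpud2 and Atf4 to Atf5 overlapped.

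For each tested gene, the 3 genes whose log2 values followed it most closely were sought among 10319 genes with a mean of at least 1 FPKM. Atf4 was followed by Api5, Myd88 and Zbtb8a (Pearson r of 0.995, 0.993 and 0.992 over 8 libraries, and 0.907, 0.969 and 0.974 with TMM scaling). The values for the other genes are as deposited. Asns was followed by Ppp1r14b, Spc24 and Gsdmd (0.993, 0.992 and 0.991), Herpud1 by N4bp2l1, Alas1 and Ocln (0.990, 0.988 and 0.981), and Ddit3 by Ifi35, Rplp2 and Tbl3 (0.996, 0.996 and 0.995). Xbp1 was followed by Dgcr2, Nek8 and Urm1 at 0.973 to 0.980, Creld2 by Erh, Gpx8 and Tsn at 0.989 to 0.994, Sdf2l1 by Trim12c, Alkbh1 and Cchcr1 at 0.979 to 0.986, Chac1 by C1qtnf5, Rab4b and Atoh8 at 0.986 to 0.990, and Ppp1r15a by Mad2l2, Lpin3 and Tmem161a at 0.989 to 0.990. With TMM scaling these r were 0.907 or more except that of Lpin3 with Ppp1r15a, which was 0.743. None of these genes was in the lists of the stress pathways.

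The wider pathway was read from 9 lists with 135 further genes, of which 127 were tested. Of these 0 were higher and 1 was lower at a limma adjusted p under 0.05, beside 0.305% and 0.602% of all tested genes. At an unadjusted p under 0.05, 1 was higher and 8 were lower, beside 2.52% and 6.84% of all tested genes. The median log2 change was -0.30 and 39 of 127 were positive, a smaller share than the 38.97% of all tested genes. With TMM scaling 1 was higher and 2 were lower, beside 1.21% and 1.32% of all tested genes. The median was then -0.12 and 57 of 127 were positive, where the median of all tested genes was 0.02. Without normoxia library 5 as well, 3 were higher (Cth, Shmt2 and Cbs) and 9 were lower (Phgdh, Aldh18a1, Slc7a5, Cars, Hspa5, Kdelr3, Spcs3, Pmaip1 and Bak1), beside 5.77% and 5.32% of all tested genes.

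The gene that fell was Phgdh, the first enzyme of serine synthesis from glycolysis. It had 3.85, 3.11, 1.08 and 0.69 FPKM in the hypoxia libraries and 30.6, 5.78, 48.7 and 10.5 FPKM in the normoxia libraries, and the groups did not overlap. Its log2 change was -2.95 ± 0.68 (SE; limma adjusted p = 0.0327), and -2.82 (adjusted p = 0.0307) with TMM scaling. The call was lost without hypoxia library 3 (adjusted p = 0.0586), hypoxia library 4 (0.0767), normoxia library 5 (0.113) or normoxia library 7 (0.216), and also with averaged hypoxia pairs (0.256), untrended variance (0.0943) or no filter (0.419). Phgdh was in a list of 11 tested genes of amino acid synthesis and one-carbon metabolism. In the same list Cth, which makes cysteine and was named with its values known, had 23.1, 23.8, 7.32 and 8.34 FPKM after hypoxia and 1.31, 6.01, 5.73 and 1.52 FPKM after normoxia. These groups did not overlap either, and the adjusted p was 0.165 as deposited and 0.0279 with TMM scaling, for a log2 change of 2.02 and 2.21. The list median was -0.07, so genes of this list lay on both sides of 0.

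Among 13 genes of the sensors, the eIF2 kinases and proteins related to them, 0 passed in either direction and 8 were positive, with a median of 0.09. The smallest p were of Eif2s1, which encodes eIF2 alpha (-0.73, adjusted p = 0.871), and Eif2ak2, the kinase PKR (-0.58, adjusted p = 0.872). Among 14 transcription partners and other stress factors, 0 passed. Eif4ebp1, a brake on translation, had 3.91, 5.72, 1.44 and 1.87 FPKM after hypoxia and 57.3, 3.89, 18.6 and 4.49 FPKM after normoxia (log2 change -1.90, adjusted p = 0.307), with normoxia library 5 far above the rest. Atf3, an early stress factor, had a change of -1.33 (adjusted p = 0.338).

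Of the 7 tested amino acid transporters 0 passed, with a median of -0.34. Slc7a5, the large neutral amino acid carrier LAT1, had a change of -1.05 (adjusted p = 0.426, and 0.0274 with TMM scaling and without normoxia library 5) and Slc7a1, a cationic amino acid carrier, of -0.50 (adjusted p = 0.898). Of the cytosolic tRNA synthetases, a group that ATF4 induces, 12 were listed and others were not looked at. All 12 had a negative change as deposited with a median of -0.56, where 38.97% of all tested genes were positive. With TMM scaling 1 of the 12 was positive, and the median was -0.39. Without normoxia library 5 as well the median was -0.20. None passed as deposited or with TMM scaling. Cars stood at -0.88 (adjusted p = 0.613), and at -0.62 (adjusted p = 0.0452) with TMM scaling and without library 5. Sars stood at -1.01 (adjusted p = 0.841), with 57.6 FPKM in library 5, and at -0.16 under that same setting.

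The ER chaperones and folding enzymes numbered 23, with a median of -0.35 and 3 positive changes. Hspa5, which encodes BiP and was chosen after its values were seen, had 31.7, 32.1, 16.9 and 7.69 FPKM after hypoxia and 15.6, 38.4, 114 and 34.9 FPKM after normoxia, a log2 change of -1.02 (limma adjusted p = 0.855) that reached an adjusted p of 0.0467 only with TMM scaling and without normoxia library 5. Manf had a change of -1.33 (adjusted p = 0.536) and Fkbp11 of -0.89 (adjusted p = 0.539). Of 21 genes of ER translocation and secretion 0 passed, with a median of -0.42. Kdelr3, a receptor that returns ER proteins, had 2.20, 0.72, 0.25 and 0.38 FPKM after hypoxia and 8.92, 3.12, 10.2 and 1.59 FPKM after normoxia, with a log2 change of -2.11 and an adjusted p of 0.0686, and only hypoxia library 1 reached into the normoxia range. Kdelr3 passed without hypoxia library 1 (adjusted p = 0.0157), normoxia library 6 (0.0217) or normoxia library 8 (0.00807). It also passed with length-trend removal (0.0274), TMM scaling without library 5 (0.0291), protein-coding scaling (0.0299), quantile normalization (0.0314) and robust variance (0.0487), and with TMM scaling alone it stood at 0.0559. Sec61g, a subunit of the translocon, had a change of -1.38 (adjusted p = 0.598).

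Of 17 tested genes of ER-associated degradation, the process to which Herpud1 belongs, 0 passed and 8 were positive, with a median of -0.10. Derl2 (-0.60, adjusted p = 0.914) and Edem2 (-0.56, adjusted p = 0.944) had the smallest p. Of 10 genes of ER stress and cell death 0 passed, with a median of -0.62. Bak1, which permeabilizes the mitochondrial outer membrane in apoptosis, had 4.81, 5.07, 2.91 and 1.4 FPKM after hypoxia and 12.8, 7.28, 21.8 and 7.54 FPKM after normoxia. Its groups did not overlap, and the change was -1.65 (adjusted p = 0.273) as deposited and -1.48 (adjusted p = 0.0434) with TMM scaling. Tnfrsf10b, a death receptor that CHOP induces, had a change of -0.95 (adjusted p = 0.458).

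**Figure D5:**
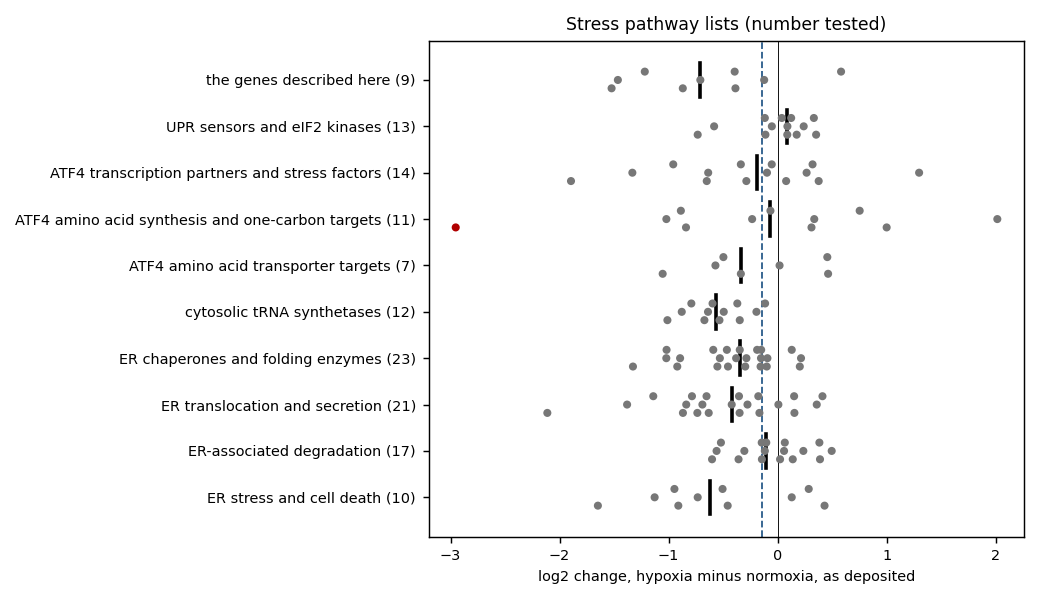
Log2 change of hypoxia minus normoxia as deposited (horizontal axis) for each tested gene of the 10 genes and the 9 lists, with the number tested, list medians as black bars, the median of all tested genes (-0.14) as a dashed line and the gene with an adjusted p under 0.05 in red. Phgdh at -2.95 is the single red point, and the 12 listed tRNA synthetases all lie left of 0.

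Markers of some cell types differed between the groups, though the summed ranges as deposited overlapped for most lists. With TMM scaling the sums did not overlap for proximal tubule genes (933 to 1092 after hypoxia, 176 to 879 after normoxia). Nor did those of thick ascending limb (611 to 1242, 194.5 to 449) and macrophage genes (34.4 to 90.2, 167 to 934). Sums of fibroblast (31.1 to 36.4, 60.4 to 128) and neutrophil genes (0.0905 to 3.20, 3.35 to 36.6) did not either. Sums of the other lists overlapped. Of single tested genes 13.2% did not overlap with TMM scaling. Summed FPKM of 7 injured-tubule genes was 260 to 2499 in the hypoxia libraries and 1663 to 4845 in the normoxia libraries, with 2 of the 7 lower at adjusted p under 0.05 and all 7 negative (median -2.58). With TMM scaling 2 were lower, and 5 without normoxia library 5 as well. Summed FPKM of 8 macrophage genes was 22.3 to 112 after hypoxia and 129 to 836 after normoxia, with 0 passing, all 8 negative and none listed at 0. With TMM scaling 3 of the 8 were lower at adjusted p under 0.05, and 6 without normoxia library 5 as well. Of all tested genes 1.21% were higher and 1.32% lower with TMM scaling, and 5.77% and 5.32% without normoxia library 5 as well. Summed FPKM of 10 proximal tubule genes was 630 to 1550 after hypoxia and 136 to 787 after normoxia, with 1 higher and 9 positive. The 1 that passed was Slc7a13 (limma adjusted p = 0.0279, and 0.0556 with TMM scaling). With TMM scaling 1 was higher, Aqp1 (limma adjusted p = 0.0476, and 0.238 as deposited), and 6 without normoxia library 5 as well. Summed FPKM of 5 thick ascending limb genes was 400 to 1762 after hypoxia and 150 to 555 after normoxia, with all 5 positive (median 1.52) and 1 passing, Egf (adjusted p = 0.0034). With TMM scaling 3 were higher, and 3 without normoxia library 5 as well. Of 6 fibroblast genes, summing to 20.8 to 45.3 FPKM after hypoxia and 54.1 to 243 FPKM after normoxia, 0 passed and 2 were positive. With TMM scaling the 3 collagens among them were lower at adjusted p under 0.05, and also without normoxia library 5 as well. The 3 collagens of that list had changes of -2.48 (Col1a1), -1.76 (Col1a2) and -2.23 (Col3a1), while Pdgfrb stood at -0.75, Pdgfra at 0.15 and Dcn at 0.34. Summed FPKM of 5 endothelial genes was 17.3 to 30.4 after hypoxia and 7.44 to 34.0 after normoxia, with 0 passing and 4 positive. Of neutrophil genes 3 were tested, with 0 passing and 0 positive. Of T cell genes 1 was tested, and 0 passed.

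Plasma cells secrete heavily and are rich in unfolded protein response genes. Their 7 markers summed to 3.11 to 8.08 FPKM after hypoxia and 3.46 to 16.0 FPKM after normoxia, with 5 of them at 0 in at least 1 library, and 3 were tested. Sdc1, which epithelial cells also express, had 1.48 to 3.02 FPKM after hypoxia and 3.37 to 11.98 FPKM after normoxia (log2 change -1.27, adjusted p = 0.408, and 0.036 with TMM scaling). Igkc reached 3.41 FPKM after hypoxia and 10.8 FPKM after normoxia (-0.29, adjusted p = 0.999). Mzb1 had a mean of 0.965 FPKM with hypoxia and 0.055 FPKM with normoxia (1.09, adjusted p = 0.40). Jchain was at most 0.22 FPKM after hypoxia and 0.07 after normoxia, and Tnfrsf17 was listed at 0 in all but normoxia library 7 (0.26 FPKM). The part of these cell types in the values of Asns, Sdf2l1 and the other genes was not tested.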

How the data were processed

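RNA was extracted with Trizol from flash-frozen kidneys and made into stranded poly(A) libraries, per the labels' protocols. The submitters' processing notes name HISAT2, StringTie and edgeR, without versions. The deposited table holds FPKM per gene and library, per the file headers. For its build and annotation, nothing was stated in the sources used here. Its identifiers all matched GENCODE M21 (GRCm38). RefSeq (GRCm38.p6) promoters were matched by symbol.

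Values were tested as log2(FPKM + 0.5), which understates changes of low genes, in genes with a mean of at least 0.5 FPKM. The test was limma 3.58.1 in R 4.3.3 (eBayes with trend, two-sided, Benjamini-Hochberg over 14444 genes, adjusted p under 0.05). This limma step was checked on simulated data whose noise was independent between genes. That check says nothing about shifts shared by a whole library. Depth was estimated from the spacing of low FPKM values, at 8280000 to 14400000 fragments per library, without an interval.

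The genes and lists were chosen with earlier results of these data known. From each list, up to 4 genes that passed were named, or the 2 with the smallest p. Cth and Hspa5 were described outside this rule, with their values known. Alternatives were other pseudocounts (0.1, 1), filters (none, 2 FPKM), scalings (TMM, quantile, protein-coding sum, length trend), variance models, paired hypoxia libraries averaged, and each library left out.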

Additional observations from a re-analysis of the deposited data

Results flagged for a closer look

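In 20 groups of 4 libraries (10 genes, as FPKM) and 34 groups of ratios, the gap between the highest or the lowest library and its nearest neighbour was divided by the range of its group. In 13 of 54 groups it was above the 95% critical value of Dixon's test for 4 samples. For normally distributed values chance puts about 1 in 20 there. FPKM and ratios were used without logs, so that rate need not hold here and no excess is read from the count. The groups share libraries.

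For FPKM, this was so for Herpud1 in hypoxia library 2 (0.905), Sdf2l1 in hypoxia library 1 (0.848), Atf4 in normoxia library 7 (0.852) and Creld2 in normoxia library 7 (0.856), each the highest of its group. Among ratios to Atf4, hypoxia library 4 was highest for Trib3 (0.903), hypoxia library 1 for Asns (0.838), and normoxia library 5 for Ddit3 (0.974) and Chac1 (0.978). Among ratios to relatives, hypoxia library 4 was highest for Trib3 to Trib1 (0.91), hypoxia library 2 for Herpud1 to Herpud2 (0.86), and normoxia library 5 for Chac1 to Chac2 (0.969) and Ppp1r15a to Ppp1r15b (0.926). Hypoxia library 1 was lowest for Atf4 to Atf5 (0.872). Normoxia library 5 thus accounts for 4 of the 13.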

How the results depend on the processing

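Over 20 alternatives none of the 9 genes passed, and 168 of 179 values kept their sign. Ppp1r15a turned positive with TMM (0.036), quantile (0.063), protein-coding (0.019) and length-trend scaling (0.074) and with TMM without normoxia library 5 (0.22). Leaving out each library gave -0.68 to 0.068 for Atf4, -1.003 to 0.24 for Xbp1 and -0.55 to 0.11 for Ppp1r15a. Among pathway genes called higher (0 as deposited), 1 was called with TMM, quantile, protein-coding and length-trend scaling, and 3 with TMM without library 5. Among those called lower (1), 0 were called with no filter, untrended variance and averaged pairs, 2 with TMM and robust variance, 3 with quantile, protein-coding and length-trend scaling, 9 with TMM without library 5, and 0 to 2 with each library left out. All genes called higher (44) numbered 0 with no filter, 175 with TMM, 280 quantile, 148 protein-coding, 831 TMM without library 5, 200 length trend, 17 untrended and 22 averaged pairs, and 11 to 67 with a library left out. All genes called lower (87) numbered 47 with pseudocount 1, 0 with no filter, 191 with TMM, 349 quantile, 228 protein-coding, 767 TMM without library 5, 251 length trend, 8 untrended and 5 averaged pairs, and 4 to 237 with a library left out. Without a filter, limma had 665 genes higher and 1356 lower at unadjusted p under 0.05. The causes were not tested. Chac1 has no value at the 2 FPKM filter. No paired analysis was possible because the libraries are numbered 1 to 4 in hypoxia and 5 to 8 in normoxia. Trib3 and Chac1 rest on few fragments.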
